A study of Mus musculus with 36 samples.

Results

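The comparison covers 6 of the 24 libraries of mouse embryonic fibroblasts (MEFs) in a series of 36 RNA-sequencing libraries. It sets the 3 columns headed CRE and basal against the 3 columns headed GFP and basal. The members were all genes of the deposited MEF table, 32266 in all, of which 13914 passed a filter on low values and were tested. By their labels, CRE libraries are Vps15KO and GFP libraries are WT. Every culture, whatever its heading, came from the same cell line with floxed Vps15 alleles and received an adenovirus, which carried the recombinase CRE for the knockout label or GFP for the wild-type label. The cells had grown in high-glucose DMEM with serum. Basal medium was high-glucose DMEM without serum, and the other MEF cultures were kept for 4 h in methionine-free DMEM, either with no further step or followed by 1 h or 4 h of methionine return. The 12 remaining libraries of the series are from livers of 4-week-old male mice, fed or fasted, WT or with Vps15 f/f alleles and a Ttr-driven CRE, a transgene active in hepatocytes. The share of cells that recombined is not given in the sources used here. Nothing in the labels says whether the 3 libraries of a group came from separate cultures, so p-values measure only the spread between these samples, which may be technical.

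Values are reported by column heading, and the headings may be displaced against the libraries. The columns run through all GFP media and then all CRE media, while the library numbers in the labels run medium by medium, WT before Vps15KO. Read by heading, the comparison is Vps15KO against WT cells, both in basal medium. If the headings were laid over the libraries in number order, the columns headed CRE basal would be the WT libraries given methionine back for 1 h after 4 h without it, and the columns headed GFP basal would be the WT basal libraries in either case. Read that way, the comparison is deprivation followed by 1 h of methionine against basal medium, both in WT cells. The 6 columns and every value below are the same under both readings, and only what the groups stand for differs.

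Vps15 is a scaffold of the class 3 phosphoinositide 3-kinase (PI3K). It holds the catalytic subunit Vps34, and together they make phosphatidylinositol 3-phosphate on endosomes and on forming autophagosomes. Methionine is used for protein synthesis and, as S-adenosylmethionine, for methylation. In fibroblasts that lack an amino acid, the kinase GCN2 phosphorylates a translation initiation factor, and the transcription factor ATF4 is then made and switches on genes of amino acid uptake, synthesis and tRNA charging.

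The counts recovered from the deposited values summed to 19345029 to 21245006 in the 24 MEF libraries. Fibroblast markers summed to 16800 to 18600 CPM in CRE and 17900 to 18700 in GFP libraries. CPM are reads of a gene scaled to a library of fixed size. Col1a1, Pdgfra, Prrx1 and Twist1 were present in all 6. Thy1, a commonly used marker, was at or near 0, Fap was under 1 CPM, and Dcn and Lum were at 3.92 to 6.46 CPM. Of 14 tested fibroblast markers 3 were higher and 4 lower in CRE. The macrophage list summed to 7.93 to 8.40 CPM in CRE and 7.79 to 8.51 in GFP libraries, nearly all of it Cd68, with Lyz2 at 0. The endothelial, epithelial and hepatocyte lists stayed under 1 CPM in every library, with Krt5 and Ttr at 0, and skeletal muscle markers summed to 2.52 to 2.99 CPM in CRE and 1.96 to 3.20 in GFP libraries. Adipocyte markers summed to 8.64 to 9.93 CPM in CRE and 11.7 to 13.5 in GFP libraries, with Adipoq at 0, Fabp4 lower and Pparg higher in CRE. Neural markers summed to 201 to 214 CPM in CRE and 254 to 256 in GFP libraries, with Nes and Map2 lower and Sox2 and Tubb3 higher in CRE. The part of these markers in the results below was not tested.

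Pik3r4, the gene that encodes Vps15 (ENSMUSG00000032571, GRCm38, chr9:105642978-105687657, plus strand), had 1101, 1086 and 1074 normalized counts in the CRE libraries, against 874, 1007 and 895 in the GFP libraries. A normalized count is a recovered count divided by the size factor of its library. Every CRE library was above every GFP library, and the groups did not overlap. The difference of the deposited log2 values was 0.23 ± 0.05 (SE; limma adjusted p = 0.000332), with means of 10.13 ± 0.02 in CRE and 9.91 ± 0.11 in GFP (SD, n = 3 each). The floxed exons are not given in the sources used here. Reads of the undeleted exons still enter the total, so this value checks neither the labels nor the headings.

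Transcript levels differed for most tested genes, by small amounts. By limma on the deposited log2 values over all 24 MEF libraries, 8113 of 13914 genes passed an adjusted p of 0.05, which is 58.3%. Of these 4127 (29.7% of those tested) were higher and 3986 (28.6%) were lower in CRE. The median absolute log2 difference of the 8113 genes was 0.33, and 6322 of them differed by under 0.5. Beyond a log2 difference of 1 lay 210 genes, 157 higher and 53 lower in CRE. The count of higher against lower genes depends on how libraries are centred: with each library shifted to the same median, which moved the median of all genes to −0.07 from 0.00, 3204 were higher and 5111 lower. Replicates lay close together, with a median SD of 0.063 in CRE and 0.066 in GFP on the log2 scale. The high share of genes called has to be kept in mind for every list below, since 29.7% of any list would be higher and 28.6% lower at the rate of all tested genes.

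**Figure D1:**
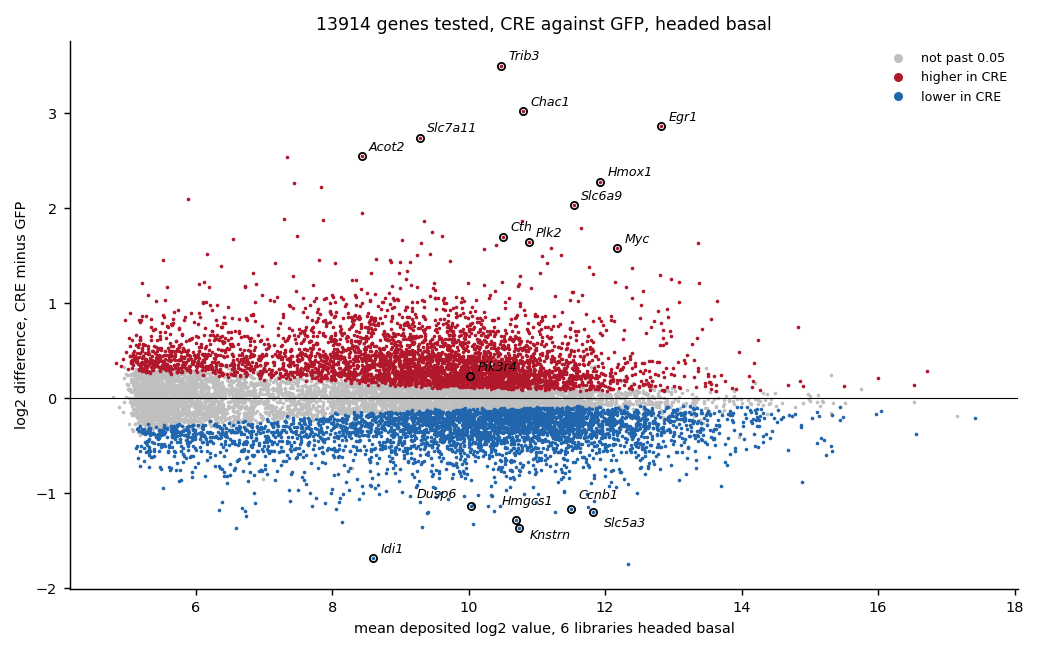
Each point is 1 of 13914 tested genes, with its mean deposited log2 value over the 6 libraries headed basal on the x axis and the log2 difference, CRE minus GFP, on the y axis. Red points (4127) were higher and blue points (3986) lower in CRE at a limma adjusted p under 0.05, and circled genes are named in the text, from Trib3 at 3.50 to Idi1 at −1.68.

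Genes of the amino acid response driven by ATF4 were the most raised of the lists described. Of 37 tested members, 34 were higher and 1 lower in CRE, with a median log2 difference of 1.12 against 0.00 over all tested genes. Trib3, a pseudokinase induced by ATF4 (chr2:152337422-152344032, minus strand), had 4559, 4737 and 4987 normalized counts in the CRE libraries, against 385, 368 and 416 in the GFP libraries. The groups were far apart, with a ratio of means of 12.2 and a log2 difference of 3.50 ± 0.05 (SE; limma adjusted p = 2.73e-32), the largest of any tested gene. Chac1, which degrades glutathione, had 4685, 5137 and 5350 in CRE, against 583, 583 and 604 in GFP (3.02 ± 0.05, adjusted p = 3.50e-28). Slc7a11, the cystine carrier that feeds glutathione synthesis, had 1539, 1535 and 1645 in CRE, against 202, 204 and 212 in GFP (2.74 ± 0.13, adjusted p = 2.61e-12). In each of these genes the lowest CRE library was over 7 times the highest GFP library.

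Several amino acid carriers of the ATF4 list were higher. Slc6a9, a glycine carrier, had 5767, 5958 and 6311 normalized counts in CRE, against 1391, 1445 and 1490 in GFP (2.03 ± 0.04, limma adjusted p = 3.13e-27). Slc1a4, a carrier of small neutral amino acids, had 5763, 5987 and 5959 in CRE, against 1625, 1680 and 1725 in GFP (1.79 ± 0.04, adjusted p = 1.51e-26). The large neutral amino acid carrier Slc7a5 differed by 1.63, its partner chain Slc3a2 by 1.13 and the cationic carrier Slc7a1 by 1.31 on the log2 scale. Asparagine synthetase Asns was higher by 1.22, and the tRNA synthetases Aars, Gars, Wars, Cars, Sars and Mars1 by 0.69 to 1.21. Atf4 itself (chr15:80255184-80257541, plus strand) had 11576, 12398 and 12734 in CRE, against 6034, 6004 and 6168 in GFP, a log2 difference of 1.01 ± 0.04 (adjusted p = 6.86e-20). Its partners in the stress response, Ddit3 (1.61) and Atf3 (1.88), and the mTORC1 inhibitor Sesn2 (1.75) were higher too. Of the serine synthesis genes, Psph was at 1.19, Phgdh at 0.37 and Psat1 at 0.23. Ddit4, another inhibitor of mTORC1, was the member that fell, by 0.38. Slc38a2 (0.00) and Slc7a3 (0.18) did not pass the test.

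The start regions of Trib3, Chac1 and Slc7a11 are shown because these are the members with the largest differences and each holds the letters of an amino acid response element, to which ATF4 with a partner is known to bind. The windows run from 250 bases before to 30 bases after the start of a RefSeq transcript (GRCm38.p6), are written on the gene's strand, and have the matches to TGATGNAA or its reverse complement TTNCATCA in capitals. Trib3 is at chr2:152344031-152344310 on the minus strand, Chac1 at chr2:119350992-119351271 on the plus strand and Slc7a11 at chr3:50443584-50443863 on the minus strand. They were chosen after their values were seen.
Trib3: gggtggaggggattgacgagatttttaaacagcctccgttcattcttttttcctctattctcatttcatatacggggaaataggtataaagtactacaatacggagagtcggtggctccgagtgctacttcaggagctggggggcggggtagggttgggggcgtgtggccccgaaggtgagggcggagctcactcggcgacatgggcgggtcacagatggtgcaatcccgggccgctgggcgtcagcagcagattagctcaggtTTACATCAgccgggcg
Chac1: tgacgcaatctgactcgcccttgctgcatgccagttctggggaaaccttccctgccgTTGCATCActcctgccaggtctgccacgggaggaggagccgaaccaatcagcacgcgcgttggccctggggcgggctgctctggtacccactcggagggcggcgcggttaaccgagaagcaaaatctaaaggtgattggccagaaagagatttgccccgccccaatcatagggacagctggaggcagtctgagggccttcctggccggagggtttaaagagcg
Slc7a11: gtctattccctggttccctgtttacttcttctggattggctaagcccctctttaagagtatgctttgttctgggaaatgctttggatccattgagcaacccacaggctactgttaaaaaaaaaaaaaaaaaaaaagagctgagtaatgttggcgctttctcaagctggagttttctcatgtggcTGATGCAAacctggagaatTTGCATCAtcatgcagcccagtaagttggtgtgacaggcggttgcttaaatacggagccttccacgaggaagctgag
The match begins at base 15 after the start in Trib3, at −193 in Chac1 and at −66 and −47 in Slc7a11. These letters, on either strand, were in 11 of 37 windows of the ATF4 list (29.7%), which come from 31 of its 37 tested genes, and in 1251 of 32851 windows of all genes (3.81%). Here and for the motifs below, the windows of all genes were not limited to tested genes, so the shares are not from like sets. In 1 of all windows a match overlapped a match to the sterol motif described below.

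Enzymes of the methionine and folate cycles were called higher or lower at near the rates of all tested genes (29.7% and 28.6%). Of 21 tested members 7 were higher and 5 lower in CRE, with a median of 0.01 (−0.06 with libraries shifted to the same median, where 8 were lower, and 3 lower without CRE replicate 3 or GFP replicate 1). Mat2a, the enzyme that makes S-adenosylmethionine in fibroblasts (chr6:72432799-72439558, minus strand), had 12159, 12518 and 12382 normalized counts in CRE, against 4994, 4885 and 5624 in GFP. The CRE libraries were all above the GFP libraries, by 1.25 ± 0.15 on the log2 scale (limma adjusted p = 1.66e-06). Cth, which turns cystathionine into cysteine, had 2462, 2564 and 2697 in CRE, against 792, 730 and 776 in GFP (1.70 ± 0.06). The mitochondrial folate enzymes Mthfd2 (1.09), Shmt2 (0.85) and Mthfd1l (0.53) and Mtrr, which reactivates methionine synthase (0.66), were higher as well. Cbs (−0.36), thymidylate synthase Tyms (−0.35), the S-adenosylhomocysteine hydrolase Ahcy (−0.26), its relative Ahcyl1 (−0.26) and cytosolic Mthfd1 (−0.09) were lower. Methionine synthase Mtr was at −0.15 and the Mat2a regulators Mat2b and Mettl16 at 0.03 and 0.01, none past the threshold.

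Of 16 genes of polyamine synthesis and methionine salvage, 4 were higher and 6 lower (median −0.10). Ornithine decarboxylase Odc1 was higher by 0.32, and Mtap, the first enzyme of methionine salvage, had 2842, 3064 and 2880 normalized counts in CRE, against 4369, 4251 and 4218 in GFP (−0.54 ± 0.04). Of 36 histone and DNA methyltransferases and demethylases, 15 were higher and 8 lower (median 0.07; with libraries shifted to the same median, 11 and 11). The demethylase genes Kdm4a (0.71), Kdm6b (0.55) and Kdm4b (0.51) were among the higher ones. Ehmt2, a histone H3 lysine methyltransferase, had 5383, 5343 and 5552 in CRE, against 7548, 7719 and 7674 in GFP (−0.49 ± 0.04), and Ezh2 (−0.24) and Dnmt1 (−0.23) were lower too.

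Immediate early genes, which answer growth factors and stress within minutes, were changed in both directions. Of 38 tested members 22 were higher and 9 lower, with a median of 0.25. Egr1 had 19310, 19112 and 19813 normalized counts in the CRE libraries, against 2533, 2690 and 2707 in the GFP libraries. The groups were 7.34-fold apart, a log2 difference of 2.86 ± 0.04 (limma adjusted p = 8.61e-32). Myc, a growth-promoting transcription factor (chr15:61985391-61990374, plus strand), had 7626, 8217 and 8016 in CRE, against 2524, 2663 and 2738 in GFP (1.58 ± 0.05, adjusted p = 9.51e-22). Junb (1.16), Klf4 (1.52), Arc (1.43) and Ier2 (1.21) were higher. Among the members that were lower, the ERK phosphatase Dusp6 had 681, 652 and 695 in CRE, against 1468, 1523 and 1560 in GFP (−1.13 ± 0.04), and the signalling inhibitors Spry4 and Spry2 differed by −0.88 and −0.77. Jun fell by 0.54, while Fos, with 36.3, 44.4 and 48.3 counts in CRE and 59.9, 47.4 and 45.4 in GFP, overlapped between the groups (−0.15, adjusted p = 0.243).

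Clock genes and genes that answer glucocorticoids or FOXO factors were mostly higher. Of 18 clock genes 14 were higher and 0 lower (median 0.50). Ciart, a repressor of the clock, had 342, 360 and 339 normalized counts in CRE, against 52.7, 42.2 and 47.4 in GFP (2.27 ± 0.07), and the repressors Nfil3 (1.63) and Nr1d1 (1.19) followed. Of 17 glucocorticoid and FOXO targets 12 were higher and 3 lower (median 0.48). Txnip, an arrestin that limits glucose uptake, had 8417, 8640 and 8667 in CRE, against 3566, 3325 and 3039 in GFP (1.37 ± 0.05), and the kinase gene Sgk1 differed by 1.30. Fkbp5, a common glucocorticoid target, was lower by 0.29.

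Cholesterol synthesis was lower throughout its list. All 24 tested genes of cholesterol synthesis and SREBP2 targets were lower in CRE and 0 were higher, with a median of −0.81. Idi1, which isomerises isopentenyl diphosphate (chr13:8885501-8892451, plus strand), had 182, 190 and 174 normalized counts in CRE, against 644, 599 and 736 in GFP. The highest CRE library was below the lowest GFP library by a wide margin, and the log2 difference was −1.68 ± 0.07 (limma adjusted p = 2.65e-19). Hmgcs1, the synthase at the head of the pathway, had 1017, 1009 and 1044 in CRE, against 2586, 2390 and 2654 in GFP (−1.28 ± 0.04, adjusted p = 1.46e-21). Acat2 (−1.20), which joins acetyl-CoA units, and Fdps (−1.19), which makes farnesyl diphosphate, were lower too, and Srebf2 itself, which encodes SREBP2, was at −0.76. Of 14 fatty acid synthesis genes 11 were lower and 2 higher (median −0.22). Elovl6, which elongates palmitate, was at −0.92, the desaturase Scd2 at −0.52 and ATP citrate lyase Acly at −0.43, while Mid1ip1, an activator of acetyl-CoA carboxylase, was higher by 0.95.

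The start region of Hmgcs1 (GRCm38.p6, chr13:119690101-119690380, plus strand, RefSeq) is shown because it was the only window of this list with a match to the sterol regulatory element TCACNCCAC or its reverse complement GTGGNGTGA, here in capitals at −137.
Hmgcs1: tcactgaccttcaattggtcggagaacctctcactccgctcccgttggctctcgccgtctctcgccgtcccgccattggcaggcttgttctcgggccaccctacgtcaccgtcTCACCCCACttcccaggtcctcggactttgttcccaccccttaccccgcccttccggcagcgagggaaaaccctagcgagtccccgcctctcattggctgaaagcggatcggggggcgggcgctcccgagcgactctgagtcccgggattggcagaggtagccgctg
It was 1 of 20 windows, from 17 of the 24 genes (5.0%), against 387 of 32851 windows of all genes (1.18%).

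Genes of the G2 phase and mitosis were lower. Of 29 tested members 28 were lower and 0 higher (median −0.79), and the exception, Pttg1, was at −0.15. Ccnb1, the mitotic cyclin B1 (chr13:100778650-100786570, minus strand), had 1865, 1872 and 1960 normalized counts in CRE, against 4237, 4203 and 4508 in GFP. All 3 CRE libraries were below the GFP libraries, and the log2 difference was −1.17 ± 0.05 (limma adjusted p = 2.66e-19). The mitotic kinase gene Plk1 had 1848, 1813 and 1999 in CRE, against 3602, 3776 and 3923 in GFP (−0.98 ± 0.05), and the spindle checkpoint kinase gene Bub1b was at −0.99. Genes of the G1/S transition and replication moved less, with 17 of 30 lower, 6 higher and a median of −0.15. Cyclin D1, Ccnd1, was lower by 0.73 and the ribonucleotide reductase subunits Rrm1 by 0.49 and Rrm2 by 0.47, whereas the replication licensing genes Cdc6 (0.34) and Cdt1 (0.27) were higher. Of 23 p53 targets 13 were higher and 3 lower (median 0.15), among them the cyclin-dependent kinase inhibitor Cdkn1a, with 840, 899 and 864 in CRE, against 438, 454 and 399 in GFP (0.96 ± 0.06). Gadd45a, also known as a target of ATF4, was at 1.87, while Mdm2 (0.09) and Bax (0.05), the classic p53 targets, did not pass the test.

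The start regions of Ccnb2, a second mitotic cyclin, and Hmmr, a spindle protein, are shown for the cell cycle homology region TTTGAA (reverse complement TTCAAA). Regulators of G2 genes, repressors among them, are known to bind there. Matches are in capitals, at −167 and at base 5 after the start in Ccnb2 (chr9:70421525-70421804, minus strand) and at base 9 after the start in Hmmr (chr11:40733408-40733687, minus strand), from RefSeq on GRCm38.p6. Both were chosen after their values were seen.
Ccnb2: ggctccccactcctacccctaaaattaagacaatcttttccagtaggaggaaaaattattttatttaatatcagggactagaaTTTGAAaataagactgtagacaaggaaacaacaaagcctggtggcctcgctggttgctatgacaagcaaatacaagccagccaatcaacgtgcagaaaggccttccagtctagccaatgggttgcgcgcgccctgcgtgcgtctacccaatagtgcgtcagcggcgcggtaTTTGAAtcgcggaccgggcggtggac
Hmmr: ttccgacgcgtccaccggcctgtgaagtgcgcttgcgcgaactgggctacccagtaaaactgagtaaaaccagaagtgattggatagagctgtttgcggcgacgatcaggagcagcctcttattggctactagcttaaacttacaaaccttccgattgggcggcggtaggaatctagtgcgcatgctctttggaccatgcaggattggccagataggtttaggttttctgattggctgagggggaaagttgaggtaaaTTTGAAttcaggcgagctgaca
These letters were in 14 of 24 windows of the G2 and mitosis list (58.3%), which come from 23 of its 29 genes, and in 5636 of 32851 windows of all genes (17.2%). Their overlap with the other 2 motifs was 0 windows.

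**Figure D2:**
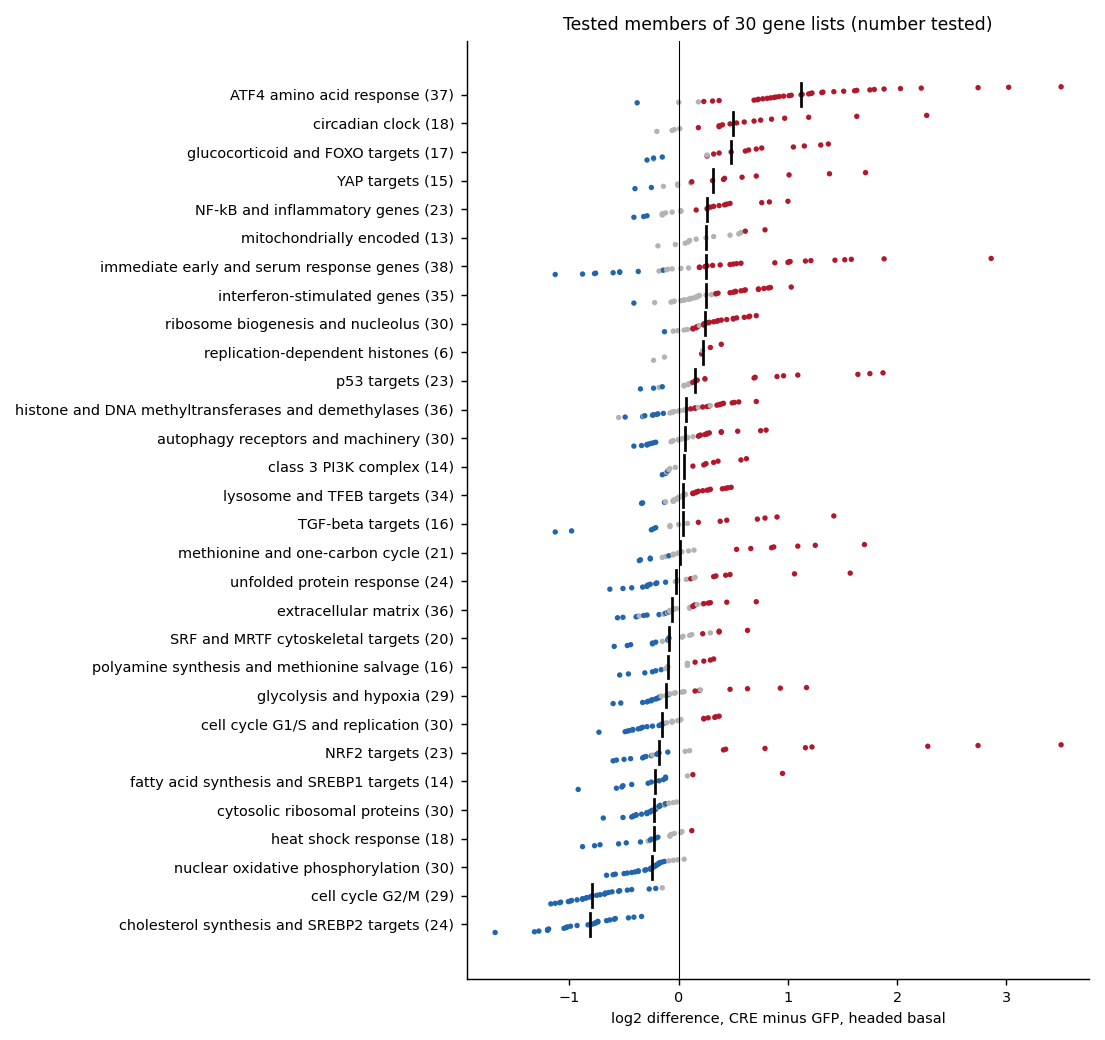
Each point is 1 tested gene of 1 of 30 lists, with its log2 difference, CRE minus GFP, on the x axis. Red and blue points passed a limma adjusted p of 0.05 upward and downward, grey points did not, and black bars mark the list medians, from 1.12 for the ATF4 list down to −0.81 for cholesterol synthesis.

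Ribosome biogenesis genes were mostly higher, while ribosomal protein genes and nuclear genes of oxidative phosphorylation were mostly lower. Of 30 ribosome biogenesis genes 24 were higher and 1 lower (median 0.24; 19 and 2 with libraries shifted to the same median), and 0 were lower without CRE replicate 1 or GFP replicate 1. Gnl3, a nucleolar GTPase, had 4044, 4423 and 4385 normalized counts in CRE, against 2784, 2580 and 2796 in GFP (0.65 ± 0.05), and Rrp9 of the pre-rRNA processing machinery was at 0.71. Cytosolic ribosomal protein genes went the other way, with 25 of 30 lower and 0 higher (median −0.23). Rps23 had 5038, 5688 and 5110 in CRE, against 8618, 8700 and 8284 in GFP (−0.69 ± 0.06). Of 30 nuclear genes of oxidative phosphorylation 26 were lower and 0 higher (median −0.24), with the complex II subunit Sdhd at −0.66. Of 29 genes of glycolysis and hypoxia 14 were lower and 6 higher (median −0.12), Tpi1 and Ldha among the lower ones (−0.33 and −0.24) and Ndrg1, Vegfa and hexokinase gene Hk2 among the higher ones (1.17, 0.93 and 0.63). Of 13 mitochondrially encoded genes 2 were higher, ND4L and ATP8 (adjusted p = 0.0355 and 0.0397), a count that was 0 to 8 over the alternatives. It was 0 without CRE replicate 1, CRE replicate 2 or GFP replicate 3, 1 without GFP replicate 1 or GFP replicate 2, and 7 without the CRE library headed 4 h, replicate 3.

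The class 3 PI3K complex and the genes it serves had small list medians, with single members higher or lower by more. Of 14 tested genes of the complex and its regulators 7 were higher and 3 lower (median 0.05; 6 and 6 with libraries shifted to the same median, where the median was −0.02). Without CRE replicate 2, 1 was lower. The catalytic subunit gene Pik3c3 had 1142, 1036 and 1179 normalized counts in CRE, against 1204, 1267 and 1192 in GFP (−0.12 ± 0.05, limma adjusted p = 0.0278), a difference not past 0.05 without CRE replicate 2 (−0.07) or GFP replicate 2 (−0.10). Becn1, the shared subunit, overlapped between the groups with 1328, 1409 and 1402 in CRE, against 1541, 1382 and 1469 in GFP (−0.08, adjusted p = 0.121; past 0.05 at −0.12 without GFP replicate 2 and at −0.15 with libraries shifted to the same median). Atg14, which directs the complex to autophagosomes, had 1013, 1006 and 1061 in CRE, against 719, 615 and 631 in GFP (0.62 ± 0.06, adjusted p = 2.37e-11). Nrbf2, its partner, was at 0.57, the phosphatase gene Mtmr3 at 0.36 and Ambra1 at 0.32. Uvrag, the subunit of the endosomal complex, was at 0.25.

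Among 30 autophagy genes 12 were higher and 8 lower (median 0.06; 10 and 11 with libraries shifted to the same median, where the median was −0.01). Sqstm1, the cargo receptor p62 that is itself degraded by autophagy, had 36376, 38253 and 37972 normalized counts in CRE, against 22738, 22490 and 21799 in GFP (0.75 ± 0.03, adjusted p = 4.68e-19). Atg101 and Atg13 of the initiating kinase complex (0.80 and 0.39) and Wipi2, which reads phosphatidylinositol 3-phosphate (0.54), were higher. The lipidation enzyme gene Atg7 (−0.34), Gabarap (−0.23) and Bnip3l (−0.41) were lower, and Map1lc3b stood at −0.06. Of 34 lysosomal genes and TFEB targets 14 were higher and 3 lower (median 0.04; 9 and 7 with libraries shifted to the same median, where the median was −0.03). The cholesterol exporter Npc1 (0.48), Rragd (0.45) and Flcn (0.43), which act in nutrient sensing at the lysosome, were higher, whereas Ctsd, Lamp1 and Tfeb stood at 0.06, −0.03 and 0.01, none past the threshold.

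NRF2 targets and genes of the unfolded protein response changed in both directions, and heat shock genes were mostly lower. Of 23 NRF2 targets 8 were higher and 12 lower (median −0.18), and Slc7a11 and Trib3 of the ATF4 list are also in this one. Hmox1, the haem oxygenase gene (chr8:75093621-75100589, plus strand), had 8058, 8967 and 8655 normalized counts in CRE, against 1722, 1740 and 1743 in GFP (2.28 ± 0.05, limma adjusted p = 4.69e-28). Txnrd1, which encodes thioredoxin reductase, was at 1.22 and Gclc of glutathione synthesis at 0.79, while the quinone reductase gene Nqo1, with 987, 1052 and 916 in CRE, against 1503, 1495 and 1541 in GFP, was at −0.60. Of 24 genes of the unfolded protein response 7 were higher and 11 lower (median −0.02). Herpud1 of endoplasmic reticulum-associated degradation (1.57), the co-chaperone gene Dnajb9 (1.06) and Xbp1 (0.47) were higher, and the chaperone genes Manf (−0.51), Pdia4 (−0.29) and Hspa5 (−0.12) lower. Of 18 heat shock genes 10 were lower and 1 higher (median −0.23), and 0 were higher without CRE replicate 2, CRE replicate 3 or GFP replicate 1. Hspa8, the constitutive HSC70, had 21774, 22582 and 22020 in CRE, against 41154, 40165 and 41080 in GFP (−0.88 ± 0.04).

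Interferon-stimulated genes were higher in part, and the 3 CRE libraries were unlike each other. Of 35 tested members 15 were higher and 1 lower (median 0.25). Mx2, an antiviral GTPase, had 468, 722 and 816 normalized counts in CRE, against 289, 337 and 282 in GFP (1.03 ± 0.14, limma adjusted p = 6.43e-06), and Isg15 had 2591, 4005 and 4213 in CRE, against 2560, 2404 and 2502 in GFP (0.50 ± 0.15). In 34 of the 35 genes CRE library 1 was the lowest of the 3 CRE libraries, and in 25 it lay at or under the highest GFP library, as CRE libraries 2 and 3 did in 4 and 5 genes. How often this order and overlap occur over all tested genes is not given here. They are therefore not read as particular to this list. Without CRE library 1 the count of higher genes was 26, without CRE library 3 it was 8, and in a fit of the compared libraries alone it was 5. Cxcl10 (0.82) was not past the threshold in that fit. Of 23 NF-kB and inflammatory genes 11 were higher and 3 lower (median 0.26), with the macrophage growth factor gene Csf1 at 0.83, Cxcl5 at 1.00 and Relb at 0.76.

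Genes of cell shape and matrix showed no common direction in most lists. Of 15 YAP targets 9 were higher and 2 lower (median 0.31). Gadd45b had 1383, 1426 and 1337 normalized counts in CRE, against 406, 393 and 394 in GFP (1.71 ± 0.05), and Ajuba was at 1.38, while the classic targets Ccn1 (−0.01) and Ankrd1 (−0.14) did not pass the test. Of 16 TGF-beta targets 7 were higher and 5 lower (median 0.04; −0.03 with libraries shifted to the same median; 3 lower without CRE replicate 1, CRE replicate 3, GFP replicate 1 or GFP replicate 2), with the BMP targets Id1 and Id3 at −0.98 and −1.13. Of 36 extracellular matrix genes 9 were higher and 9 lower (median −0.06; 4 and 13 with libraries shifted to the same median), and 5 were higher without CRE replicate 1 or GFP replicate 3. Col3a1 had 36522, 33003 and 32482 in CRE, against 51058, 50721 and 48058 in GFP (−0.56 ± 0.06), and tenascin gene Tnc was at 0.71. Of 20 cytoskeletal targets of SRF and MRTF 8 were lower and 4 higher (median −0.09), with the actin genes Actg1 and Actb at −0.59 and −0.47 and Vcl at −0.44. Of 16 replication-dependent histone genes, 6 were tested, of which 3 were higher and 0 lower in the polyadenylated RNA that was sequenced. H2bc4 (0.39) was one of these, and the calls of H1f2 (0.21) and H1f5 (0.29) were lost in 3 and 9 of the alternatives.

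Among the 12 largest rises were further genes outside these lists. Acot2, a mitochondrial acyl-CoA thioesterase, had 753, 818 and 826 normalized counts in CRE, against 123, 104 and 101 in GFP (2.55 ± 0.07, limma adjusted p = 2.69e-24). Socs2, a feedback inhibitor of growth hormone signalling, was at 1.95 and the pattern recognition molecule gene Ptx3 at 1.86. Among the 12 largest falls was D17H6S56E-5, with 2770, 2740 and 2861 in CRE, against 9345, 9091 and 9797 in GFP (−1.74 ± 0.04, adjusted p = 1.15e-25). Knstrn, a kinetochore protein gene, was at −1.37, the cadherin gene Cdh26 at −1.21, the myo-inositol carrier gene Slc5a3 at −1.20 and the chemokine gene Cx3cl1 at −1.14. In all of these the 3 CRE and 3 GFP libraries did not overlap, which the choice of the genes required.

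The next most similar pair of headings, CRE against GFP in methionine-free medium for 4 h (headed deprived), shares no library with the basal pair. There 8717 genes passed 0.05, which is 62.6% of those tested, 4457 higher (32.0%) and 4260 lower (30.6%). The 2 sets of differences had a Pearson correlation of 0.91 across the 13914 genes, which are not independent replicates and share the filter and the normalization. In the same direction under both headings were 6833 genes, 84.2% of those called under the basal heading and 78.4% of those called under the deprived heading, and 26 were called in opposite directions. The difference between the 2 contrasts was tested by its own term: 665 genes (4.78%) passed 0.05, with the basal difference above the deprived one in 215 (1.55%) and below it in 450 (3.23%). That count was 387 without CRE replicate 1 and 399 without GFP replicate 3 of the basal pair, and 1080 without the CRE library headed 4 h, replicate 3, whose mitochondrial share of 0.644% stood apart from 1.236% to 1.728% in the others. Read by heading, this term asks where loss of Vps15 acts differently in basal and in methionine-free medium. Read in number order, it asks where the step from basal medium to 1 h of methionine return differs between WT and Vps15KO cells.

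**Figure D3:**
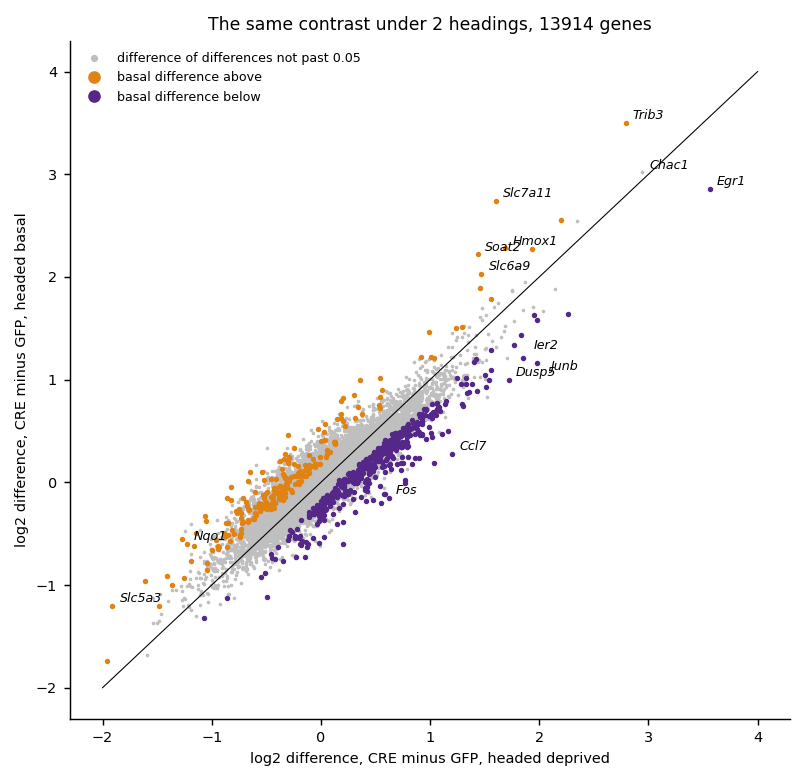
Each point is 1 of 13914 genes, with the log2 difference CRE minus GFP headed deprived on the x axis and headed basal on the y axis; the line marks equal differences. In 215 orange genes, such as Slc7a11 (2.74 basal, 1.60 deprived), the basal difference was the higher one, and in 450 purple genes, such as Egr1 (2.86 basal, 3.56 deprived), it was the lower one.

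In 28 of 38 immediate early genes the basal difference was below the deprived one, and in 0 above it (median −0.38). Below means a lower signed value: Dusp6, at −1.13 basal and −0.86 deprived, is one of the 28. Junb was at 1.16 basal and 1.98 deprived (difference −0.82, limma adjusted p = 1.13e-09), Egr1 at 2.86 and 3.56 (−0.70), Myc at 1.58 and 1.98 (−0.40), and Fos at −0.15 and 0.62 (−0.77, adjusted p = 0.00268). Ribosome biogenesis genes were below in 9 of 30 and above in 0, with Rrp12 at 0.60 basal and 0.93 deprived. NRF2 targets went the other way, with 9 of 23 above and 0 below. Slc7a11 was at 2.74 basal and 1.60 deprived (1.14, adjusted p = 0.00119), Hmox1 at 2.28 and 1.69 (0.59), Nqo1 at −0.60 and −1.23 (0.63), and Srxn1, which reduces peroxiredoxins, at 0.06 and −0.34 (0.41). Of the ATF4 list 11 of 37 were above and 1, Ppp1r15a, below: Trib3 was at 3.50 and 2.79 (0.71) and Slc6a9 at 2.03 and 1.47 (0.56), but Chac1 (0.08, adjusted p = 0.567) and Atf4 (−0.09, adjusted p = 0.416) did not pass. Cholesterol synthesis had 2 above and 1 below, and the G2 and mitosis list 0 in either direction.

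Across all 8 headings the same genes took other orders. Mat2a averaged 13.60 in CRE and 12.34 in GFP on the deposited log2 scale under the basal heading, 13.59 in CRE and 12.17 in GFP headed deprived, 11.80 in CRE and 13.89 in GFP headed 1 h, and 11.43 in CRE and 13.77 in GFP headed 4 h. By heading, CRE was thus above GFP in the first pair of media and below it after methionine return. In number order, the same means are 12.17 in Vps15KO and 12.34 in WT cells in basal medium, 13.77 in Vps15KO and 13.89 in WT cells after 4 h of deprivation, 13.59 and 13.60 after 1 h of return, and 11.43 and 11.80 after 4 h of return. Read so, both genotypes were high without methionine and after 1 h of its return, and lower in basal medium and after 4 h of return. The SD was 0.02 in CRE and 0.11 in GFP headed basal, and 0.50 in CRE headed 4 h, where values ran between 10.85 and 11.73 (n = 3).

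For Chac1 too, CRE was above GFP headed basal and deprived and below it headed 1 h and 4 h. Chac1 averaged 12.31 in CRE and 9.29 in GFP headed basal, 13.38 in CRE and 10.44 in GFP headed deprived, 10.25 in CRE and 13.05 in GFP headed 1 h, and 11.50 in CRE and 13.83 in GFP headed 4 h. In number order the Vps15KO mean is above the WT mean in each medium for Chac1, at 10.44 against 9.29 in basal medium, 13.83 against 13.05 after deprivation, 13.38 against 12.31 after 1 h and 11.50 against 10.25 after 4 h. Pik3r4, the gene named by the labels, gave 9.64 in Vps15KO and 9.91 in WT cells in basal medium when read in number order, 9.73 and 9.90 after deprivation, 9.86 and 10.13 after 1 h, and 9.78 and 10.05 after 4 h, Vps15KO first. By heading it was higher in CRE in each medium, at 10.13 against 9.91, 9.86 against 9.64, 10.05 against 9.90 and 9.78 against 9.73.

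**Figure D4:**
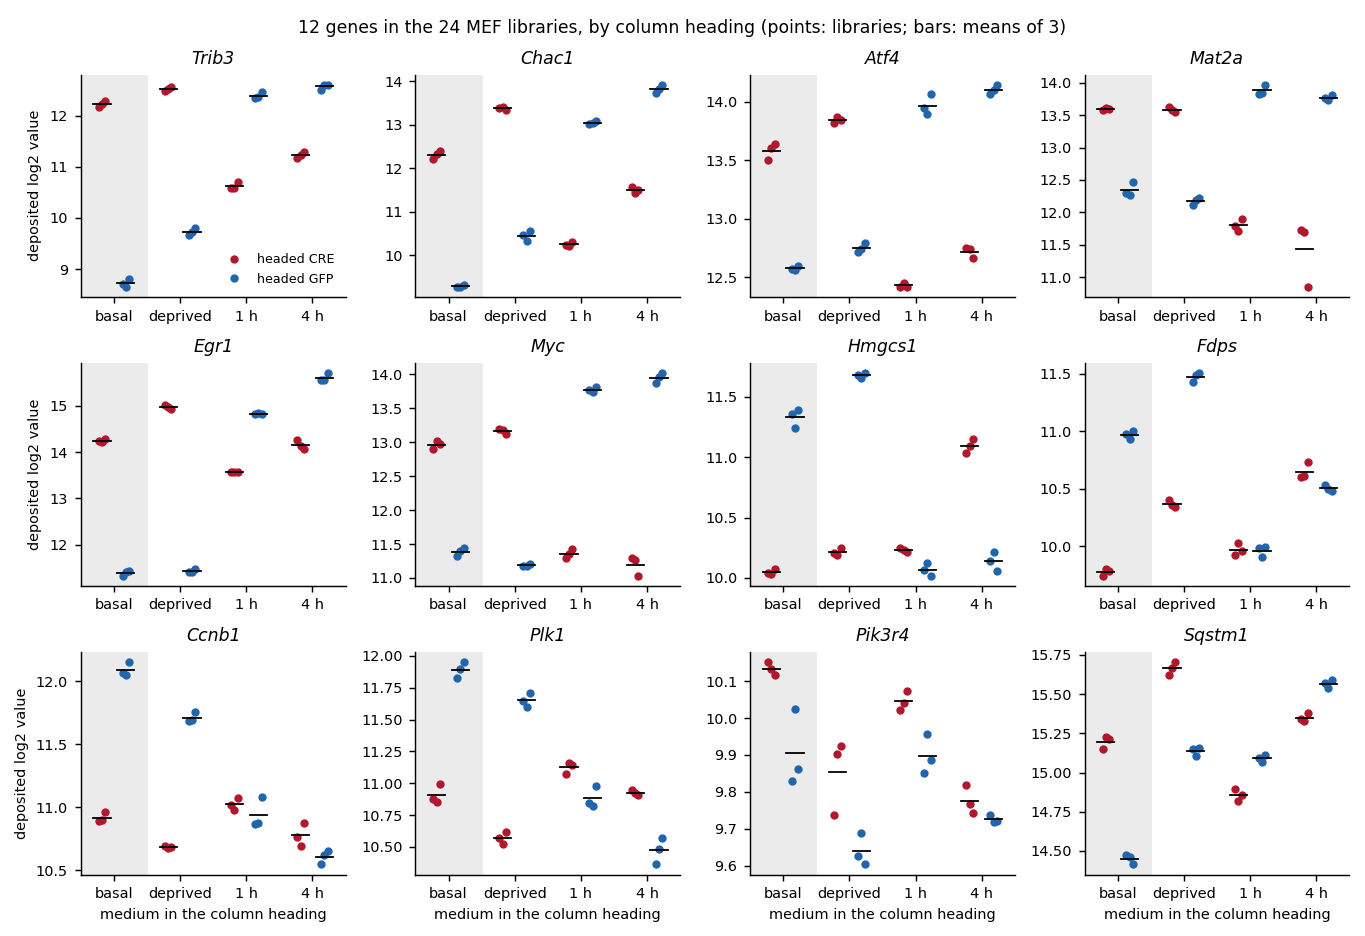
Deposited log2 values of 12 genes in the 24 MEF libraries, with the medium in the column heading on the x axis and CRE (red) left of GFP (blue) in each; points are libraries, bars are means of 3, and the shaded pair is the comparison described. Trib3, Chac1, Atf4, Mat2a, Egr1, Myc and Sqstm1 are higher in CRE headed basal, Hmgcs1, Fdps, Ccnb1 and Plk1 lower, and Pik3r4 is at 10.13 in CRE and 9.91 in GFP.

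The fed livers of the series offer values of the same genes in another tissue, given without a test for the 8 genes named whatever their p. Pik3r4 had 24.8, 22.4 and 25.3 CPM in livers labelled knockout, against 23.4, 17.5 and 23.4 in wild-type livers, which overlap. Atf4 was lower, with 79.7, 108 and 109 CPM in knockout, against 145, 149 and 163 in wild-type livers, where the MEF difference by heading was 1.01. In number order, the Atf4 means of MEFs in basal medium are 12.75 in Vps15KO and 12.58 in WT cells on the deposited log2 scale. Mat2a had 116, 101 and 92.6 in knockout, against 92.3, 82.3 and 89.4 in wild type, so every knockout liver was above every wild-type liver. Sqstm1 had 793, 878 and 753 in knockout, against 299, 249 and 301 in wild type, and Myc 105, 88.6 and 88.1 in knockout, against at most 28.2 in wild type, both high in all 3 knockout livers. Pik3c3, with 17.9, 18.7 and 17.4 in knockout, against 12.7, 11.2 and 13.9 in wild type, and Becn1, with 36.1, 38.7 and 36.0 in knockout, against 30.9, 30.3 and 31.2 in wild type, were higher in all 3 knockout livers as well. Atg14 overlapped, with 10.6, 12.3 and 14.4 in knockout, against 13.9, 11.0 and 14.2 in wild type. How often the 3 knockout and 3 wild-type livers separate over all genes is not given here. The separations are therefore not read as particular to these genes. In bulk samples, fewer cells of a type and less RNA per cell cannot be told apart.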

How the data were processed

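Polyadenylated RNA was sequenced on a DNBSEQ-G400, per the labels' protocols. STAR 2.7.10b, featureCounts, DESeq2 and limma on build mm10 are listed for the MEFs, per the submitters' processing notes. The MEF table deposited by the authors holds variance-stabilized log2 values. Inverting the transformation gave whole counts (within 0.01) in 100% of cases, used for depth, normalized counts and alternatives; the size factors were 0.946 to 1.033. The fed liver values rest on raw counts deposited by the authors, scaled here to CPM with library totals adjusted by edgeR's normalization factors. The CPM of MEF markers use the recovered library totals without such factors. HISAT2, Subread, DESeq2 and edgeR are listed for the livers. Whether reads were counted by strand is not given in the sources used here. The number of columns of values left unused was 0. Replicate libraries of the 2 basal groups differed by 2.24 to 3.46 times counting error (chi-square over its degrees of freedom), so none was a copy of another.

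All 24 MEF libraries, with 1 mean for each of the 8 headings, were fitted with limma 3.58.1 in R 4.3.3 (mean-variance trend, robust moderation) on the deposited log2 values, keeping genes with a mean 1 or more above 4.17, the lowest value in the table. Benjamini-Hochberg adjustment ran over the 13914 genes, with a threshold of 0.05. An exact permutation test of 3 against 3 cannot go below 0.1 and was not used. A fold change from the log2 values understates that of low genes. The second test was the basal difference minus the deprived difference in the same fit.

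The members and the 30 gene lists were chosen with earlier results of these data known. Named genes were 8 fixed genes, up to 4 members of each list with the smallest adjusted p, and the 12 largest rises and falls past 0.05 whose libraries did not overlap and whose higher mean reached 9.40, the median of tested genes; symbols of the forms Gm plus digits, Rik and LOC were left out of the last. Other list members, and the promoters, were named after their values were seen. Some genes that these rules name are not reported here. The listed symbols Bhmt, Bhmt2, Nars1, Rigi and Il1b were among those not matched. All symbols matched RefSeq gene names (GRCm38.p6), and gene positions are from GENCODE M21. Reads from near-identical copies (Hspa1b, Acot2, ribosomal protein and histone genes, D17H6S56E-5) may be shared between genes, so their values are uncertain.

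Alternatives were a shift of each library to the same median, no filter, no trend and no robust moderation, the replicate number as a block, the compared libraries alone, edgeR 4.0.16 and DESeq2 1.42.0 on the recovered counts, and each of the 6 libraries left out in turn. Leaving out the CRE library headed 4 h, replicate 3, was chosen after seeing the data. The steps were run on simulated counts in which only a small part of the genes was changed. That run cannot check them where most genes differ, as here.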

Additional observations from a re-analysis of the deposited data

Results flagged for a closer look

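In the genes below, all named by the rule, the CRE minus GFP difference headed basal differed from the same difference headed deprived, by the test of the difference itself (limma adjusted p under 0.05). Over all tested genes 4.78% did so. Given below is the basal difference minus the deprived difference on the log2 scale.

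Carriers and stress genes stood above under the basal heading: Slc7a11 by 1.14, Trib3 by 0.71, Slc6a9 by 0.56 and Slc1a4 by 0.23. Of the redox genes, Hmox1 gave 0.59 and Txnrd1 0.30, and of autophagy Sqstm1 gave 0.22 and Pik3c3 0.23. The chemokine gene Cxcl5 gave 0.64, Slc5a3 0.71, Col3a1 0.40, Scd2 0.35, Acot2 0.35, Ciart 0.35, Acat2 0.29 and D17H6S56E-5 0.22. Above means a higher signed value. Slc5a3, Col3a1, Scd2, Acat2, D17H6S56E-5 and Pik3c3 were lower in CRE under both headings, and by less under the basal one.

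Early response and signalling genes stood below: Junb gave −0.82, Egr1 −0.70, Plk2 −0.62, Myc −0.40 and Dusp6 −0.26. Of these, Dusp6 was lower in CRE under both headings, and by more under the basal one. Cited2 gave −0.38, Amotl2 −0.36, Ptgs2 −0.35, Cdkn1a −0.32, Nfil3 −0.31 and Relb −0.26. Xbp1 gave −0.39, Rrp12 −0.33, Hk2 −0.30, Gnl3 −0.26 and Ndrg1 −0.24. What these differences stand for depends on the reading of the headings, which was not tested.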

How the results depend on the processing

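The count of 8113 genes was 7718 (DESeq2) to 8510 (without the CRE library headed 4 h, replicate 3) in the fits that kept all 6 compared libraries. Leaving out each in turn gave 7386 to 7589 genes, 3749 to 3891 higher and 3637 to 3726 lower. The count for the difference between the basal and deprived contrasts was less stable than that of the basal contrast. It was 665 (215 above, 450 below) as reported, 419 (139 and 280) with no filter, 1109 (430 and 679) in a fit of the compared libraries alone and 1080 (403 and 677) without the CRE library headed 4 h, replicate 3. Leaving out each basal library in turn gave 387 to 566, with 114 to 194 above and 260 to 391 below. The cause was not tested. edgeR and DESeq2 on the recovered counts gave 636 and 699.

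Deviations of same-numbered CRE and GFP libraries headed basal correlated at 0.005, −0.083 and 0.099. With 3 libraries a group, these values cannot show whether the replicate numbers pair the libraries. With the replicate number as a block, over the compared libraries alone, the basal count was 8472 and that of the difference between the contrasts 1386 (566 above, 820 below). Without the block, the same libraries gave 8387 and 1109.

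For the CRE minus GFP difference headed basal, the 135 named genes had 1890 values under these alternatives. Of these, 1852 kept their direction and side of the threshold, 29 fell short of it, 9 passed it anew and 0 reversed. The changes were in Pik3c3, Becn1, Cxcl10, H1f2, H1f5, H2bc6 and the mitochondrial genes ND4L, ATP8, ATP6 and COX3. The 1890 values do not cover the flagged differences between the contrasts. Among those, Pik3c3, Nfil3 and Relb were nearest the threshold (limma adjusted p = 0.0457, 0.0469 and 0.0478). Ciart, Acot2, Slc5a3 and D17H6S56E-5 followed (limma adjusted p = 0.0364, 0.0352, 0.0325 and 0.0312). How each flagged difference fared under the alternatives is not given here. Of 840 list counts 46 moved by over 1.5 times. Low counts limit the histone and mitochondrial genes, and counts of 3 libraries a group limit the spread to that between these samples.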
